A study of Mus musculus with 3 samples.

Results

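Endothelial cells form the inner wall of every blood and lymph vessel, and those captured among Pthrp-mCherry+ cells of mouse molars were chosen by their own transcripts. A cell was included when it held at least 1 unique molecular identifier (UMI, 1 captured mRNA molecule) of Pecam1 and at least 1 of Cdh5, at least 4 over Pecam1, Cdh5, Kdr and Flt1 together, and none of Ptprc, the pan-leukocyte phosphatase CD45. Cells with fewer than 500 genes, or with over 20% of UMIs from mitochondrial genes, were left out first. Of the 24328 cells kept, out of 27089 deposited, 162 met the rule. The remaining 24166 kept cells are called the other cells. All cells came from Pthrp-mCherry knock-in mice, in which a red fluorescent protein reports the gene for parathyroid hormone-related protein (Pthlh, PTHrP). Mandibular molars of P15, P25 and 8-week mice were dissociated, cells from the mandibles of an age were pooled, mCherry+ cells were sorted, and a single 10x Chromium 3' library was made for each age, so no age had a replicate. The labels call the sorted cells cementoblasts and their precursors, which names neither the vessel wall nor any other cell type carried along in the gate.

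Blood vessels of the periodontal ligament and dental pulp feed the cells that build the tooth root. Endothelial cells read growth factors that neighbouring mesenchymal and mural cells release: VEGFs through Kdr and Flt1, angiopoietins through Tek (TIE2), Wnts through Frizzleds, and BMPs through Acvrl1 (ALK1) with endoglin. Along the vascular tree they divide into arterial, capillary, venous and lymphatic forms, each with its own marker genes, and sprouting vessels are led by tip cells.

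The P15 library gave 148 of the 162 endothelial cells, P25 gave 8 and 8 weeks gave 6. Their share of kept cells was 1.30% at P15 (exact 95% Clopper-Pearson interval 1.10 to 1.52), 0.0961% at P25 (0.0415 to 0.189) and 0.131% at 8 weeks (0.0480 to 0.284). The interval at P15 lay above both others, although with a single library per age no test between ages was possible and the intervals cover counting error only. With each cell thinned to 3000 UMIs before the rule was applied, the shares were 1.07%, 0.0370% and 0.119%. In sum the endothelial cells held 1621137, 194134 and 78362 UMIs at P15, P25 and 8 weeks, an order kept for sets of 3 values from here on unless other groups are named. The other cells held 183368663, 168046928 and 45258159 UMIs. A median endothelial cell had 9136, 19052 and 10131.5 UMIs, against 15347.5, 16586 and 9368 in the other cells. A single cell contributed 35.3% of the endothelial UMIs at P25 and 37.3% at 8 weeks, but only 2.47% at P15, so levels at the 2 later ages rest on few cells. The libraries shared 26 cell barcodes (P15 and P25), 16 (P15 and 8 weeks) and 13 (P25 and 8 weeks), none of them in an endothelial cell.

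The 4 genes the cells were chosen by are described without a test. Pecam1 (CD31, a junctional adhesion molecule) had a median of 8, 10 and 12 UMIs per endothelial cell. Medians of Cdh5 (VE-cadherin, the adherens junction protein of endothelium) were 9, 10.5 and 5 UMIs. Kdr (VEGFR2) had medians of 4, 8 and 0.5 UMIs and Flt1 (VEGFR1) of 9, 7 and 11. The 4 genes together reached a median of 33, 51 and 30 UMIs, far from the minimum: only 3, 2 and 1 cells held 4 to 7 UMIs. Just outside the rule lay 2, 0 and 1 cells with Pecam1 and Cdh5 but fewer than 4 UMIs in all, and 4, 0 and 0 cells set apart by Ptprc alone. A further 31, 4 and 1 cells had at least 4 UMIs over the 4 genes but lacked Pecam1 or Cdh5.

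The label was checked against 24 pan-endothelial genes that the rule did not use. UMI counts were summed over the endothelial cells and over the other cells of each library, and are given as CPM, the UMIs of a gene in every 1000000 of the sum. Where a level stands against another, the endothelial cells come first and the other cells second. Fold changes are endothelial over other cells with the SE after the ± sign. All 24 genes were higher in the endothelial cells (edgeR quasi-likelihood test on the 6 sums, adjusted p under 0.05). Of all 13444 genes tested, 6.38% were higher. Leaving out P15 or P25 kept 21 of the 24 calls each and a block for the library kept 22. The median log2 fold change of the list was 7.88 beside -0.26 for all genes tested. The list was chosen as known to accompany Pecam1 and Cdh5, and so the count checks the label only. Egfl7 (chr2:26580014-26593120, GRCm38), a secreted vessel factor, stood at 1141, 1080.4 and 1164 against 8.24, 3.42 and 2.35 CPM (log2 fold change 7.56 ± 0.55, edgeR adjusted p = 0.000165). Vwf, the clotting factor stored in endothelial granules, had 204, 98.2 and 358 against 0.503, 0.131 and 0.111 CPM (log2 fold change 9.23 ± 0.80, edgeR adjusted p = 0.000645). Egfl7 varied little between the ages, while Vwf at P25 was the lowest of the 3 ages and rested on 18 UMIs.

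Emcn (endomucin), a sialomucin of capillary and venous surfaces, had 696, 748 and 1266 against 1.13, 0.225 and 0.332 CPM (log2 fold change 10.24 ± 0.81, edgeR adjusted p = 0.000388). Tie1, an orphan receptor of the angiopoietin system, stood at 241, 251 and 281 against 0.339, 0.0250 and 0.0664 CPM (log2 fold change 10.29 ± 0.93, edgeR adjusted p = 0.00086). Eng (endoglin), the BMP co-receptor, was also measured in cells outside the vessel wall, with 845, 655 and 652 against 25.3, 28.7 and 35.5 CPM (log2 fold change 4.24 ± 0.26, edgeR adjusted p = 4.49e-05). For all 24 genes the endothelial sum lay above the sum of the other cells in each of the 3 libraries. The plot of these genes by library shows no overlap within a library. This too checks the label only, and the share of all genes tested that did so is not given.

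**Figure D1:**
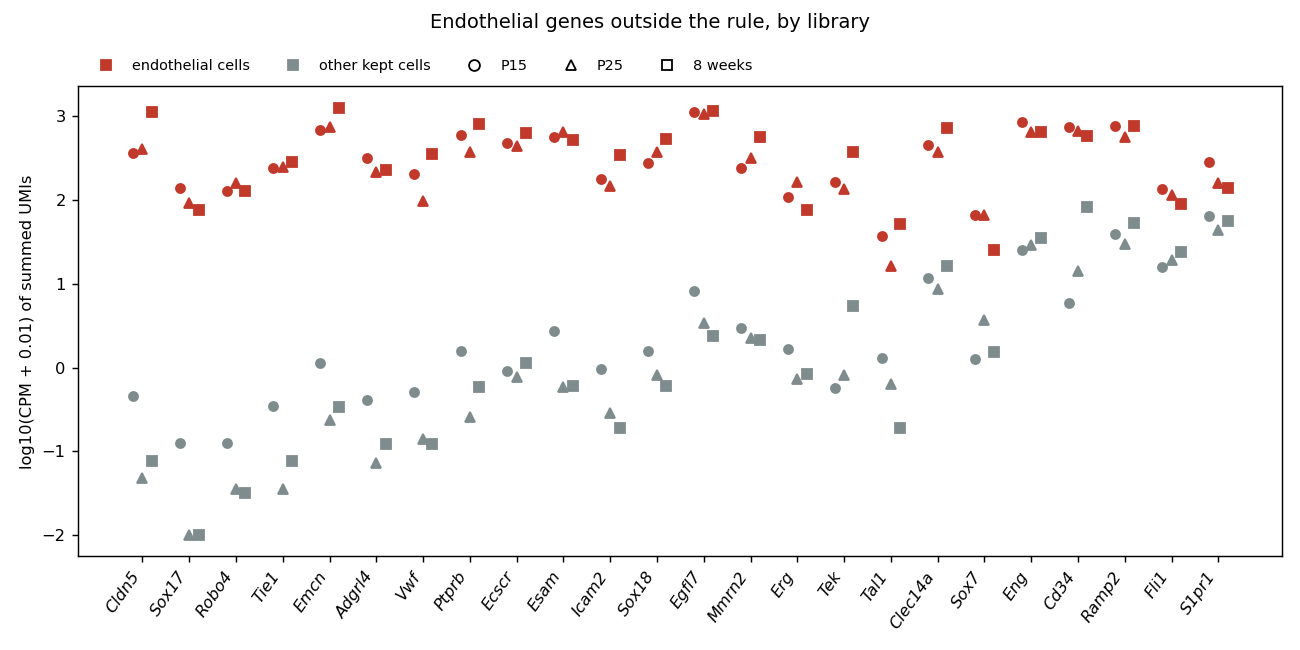
Levels of 24 endothelial genes outside the rule, as log10(CPM + 0.01) of UMIs summed over the endothelial cells (red) or the other cells (grey), with 1 point per library (circle P15, triangle P25, square 8 weeks). For each gene the red points lie above the grey ones, from Cldn5 with the largest log2 fold change (adjusted p 0.00236, and 0.0738 with the library as a block) to S1pr1 with the smallest; Sox17 had no UMI in the other cells at P25 and 8 weeks.

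Markers of the mesenchyme that fills the sort were low in the endothelial cells. Of 13 mesenchymal genes tested, 11 were lower and none higher, beside 8.37% of all genes tested that were lower. Col1a1, the main collagen of bone, cementum and ligament and the most abundant of the list in the P15 and P25 endothelial cells, stood at 2588, 3454 and 1266 against 12453, 23446 and 15568 CPM (log2 fold change -3.17 ± 0.44, edgeR adjusted p = 0.00395). The list summed to 7401, 12108 and 9118 CPM in the endothelial cells against 36563, 58897 and 49687 CPM in the other cells, and none of its 13 genes was at 0 in an endothelial sum. Thinned to 3000 UMIs per cell, 81.6% of 147 endothelial cells at P15 held a Col1a1 UMI (98.6% unthinned), as did 81.8% of 787 immune cells (97.4% unthinned), a cell type that makes no collagen I, with median depths of 9136 and 11202.5 UMIs. The share of cells with a Col1a1 UMI was no higher than in immune cells, so it is not read as expression. Its source was not tested. The level was uneven, since 4072 Col1a1 UMIs of the 3 sums came from 16 cells (cluster 6) and the sums held 4185, 633 and 99. The mural list (pericytes and smooth muscle) summed to 199.7, 698 and 63.9 CPM against 674, 381 and 616 CPM, and 3 of its 10 tested genes were lower (none lower without 8 weeks, 6 with the library as a block). All 66 Rgs5 UMIs at P25 came from 1 cell and made up 360 of the 698 CPM there. Myh11, a contractile protein of smooth muscle, and Des, a filament protein of muscle cells, had no UMI. Tagln, a further smooth muscle gene, was however among the 10 leading genes of cluster 1 (32 cells), with a log2 fold of 1.91 over the rest of the endothelial cells.

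Epithelial and leukocyte genes had low sums, although few passed the test. The rule kept cells with Ptprc out of the endothelial cells, while 842, 221 and 19 of the other cells held at least 2 Ptprc UMIs. Levels of the other immune genes were thus partly set by the choice of cells. Of all genes tested, 6.38% were higher and 8.37% lower, the background of the counts in this paragraph. The 6 epithelial genes summed to 319, 115 and 0 CPM against 2396, 4795 and 1035 CPM in the other cells, and 2 of 6 were lower (none lower without P15 and without P25, 6 with the library as a block), with Krt14 the most abundant. The 9 immune genes, of which Ptprc was at 0 by the rule, summed to 205, 5.46 and 115 CPM against 7711, 657 and 228 CPM (Ptprc itself 34.2, 10.9 and 2.19 CPM there), with Tyrobp, Csf1r, Cd79a and Cd79b at 0 at both P25 and 8 weeks, and 2 of 8 tested were lower (1 lower without P15, none without P25, 7 with the library as a block). Erythroid genes summed to 2710.0 CPM at P15 against 2804 CPM in the other cells, with 96.1% of the most abundant, Hbb-bs, from a single cell. None of the 5 erythroid, 3 platelet and 3 Schwann cell genes tested was called (1 of each list was lower with the library as a block). The 3 UMIs used as the limit for a count of 0 correspond in these sums to 1.85, 16.4 and 38.4 CPM.

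The reporter itself was low. The mCherry transcript stood at 83.5, 43.7 and 63.9 against 317, 359 and 542 CPM (log2 fold change -2.93 ± 0.33, edgeR adjusted p = 0.000943). Pthlh, whose locus drives it, had 40.8, 43.7 and 51.2 against 150.4, 190.2 and 228 CPM (log2 fold change -2.48 ± 0.26, edgeR adjusted p = 0.000743). At 3000 UMIs per cell, 5.44% (2.38 to 10.4) of the endothelial cells at P15 held an mCherry UMI, beside 10.4% (8.37 to 12.8) of immune cells and 35.2% of the other cells (unthinned 17.6%, 26.8% and 61.2% for the same 3 groups). The endothelial share was no higher than that of immune cells and is not read as expression, which concerns the share and not single cells. Its source was not tested. Of the 148 endothelial cells at P15, 26 held the 135 mCherry UMIs of the sum, and 4 of them held 34, 24, 24 and 17. The cell with 34 had 8311 UMIs in all. For Pthlh the thinned shares at P15 were 8.16% (4.29 to 13.8) of endothelial, 4.96% (3.55 to 6.71) of immune and 25.1% of the other cells, and the intervals of endothelial and immune cells overlapped.

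Across all genes tested, 858 were higher in the endothelial cells and 1125 lower (6.38% and 8.37% of 13444). By the rule for naming, 347 higher genes outside every list reached 50 CPM in each endothelial sum, and the 15 with the largest log2 fold change were Myct1, Ctla2a, Gimap4, Cytl1, Fam167b, Podxl, Gimap5, AU021092, Ushbp1, Gimap1, Cd93, Cyyr1, Fgd5, Abcb1a and Mfng, with log2 fold changes from 10.57 to 7.53. Ctla2a, a cysteine protease inhibitor, was the most abundant of them at P15 and P25, with 1379, 2029.8 and 959 against 1.36, 0.594 and 0.332 CPM (log2 fold change 10.51 ± 0.72, edgeR adjusted p = 0.000202). At 8 weeks Cytl1 stood at 1228 CPM, with a counting interval that overlapped that of Ctla2a, beside 60.0 CPM at both P15 and P25. Podxl (podocalyxin), a sialomucin that lines the lumen, had 333, 300.1 and 281 against 0.421, 0.144 and 0.155 CPM (log2 fold change 9.90 ± 0.51, edgeR adjusted p = 3.19e-05). Gimap1, Gimap4 and Gimap5, related GTPases of the immunity-associated family, were all among the 15. Gimap4 stood at 139, 218 and 243 against 0.208, 0.0687 and 0.0443 CPM (log2 fold change 10.24 ± 0.58, edgeR adjusted p = 4.49e-05). Fgd5 activates the small GTPase CDC42 in endothelium, Abcb1a pumps drugs out of brain and other vessels, and Mfng glycosylates Notch receptors. Each had between 81.8 and 192 CPM in the endothelial sums and under 1 CPM in the other cells.

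Cytl1, a secreted cytokine-like protein, differed most between the ages within this group, at 60.0, 60.0 and 1228 against 0.252, 0.225 and 0.421 CPM (log2 fold change 10.04 ± 1.72, edgeR adjusted p = 0.0175, and 0.0659 without P15 and 0.0806 without P25). Of its UMIs, 96 came from the 6 cells at 8 weeks. The 5 most lower genes with at least 50 CPM in each sum of the other cells were Ly6d, Lgals7, Bglap, Gpha2 and Thbs4. Ly6d was not called without P15 (edgeR adjusted p = 0.137) or without 8 weeks (0.0976), and Thbs4 not without 8 weeks (0.156). Bglap (osteocalcin), the matrix protein of osteoblasts and cementoblasts, stood at 117, 38.2 and 115 against 883, 2533 and 4277 CPM (log2 fold change -5.16 ± 0.71, edgeR adjusted p = 0.00442). Lgals7, an epithelial galectin, had 9.89, 32.7 and 0 against 166, 826 and 222 CPM (log2 fold change -5.27 ± 1.02, edgeR adjusted p = 0.0173, and 0.0787 without P15 and 0.0905 without 8 weeks). The number of calls depended on each library. Without P15, 381 genes were higher and 258 lower, without P25 431 and 369, and without 8 weeks 704 and 393. With the library as a block 1144 were higher and 2229 lower. Scaling by total counts in place of edgeR's trimmed mean (TMM) moved the median of all genes from -0.26 to 0.09. The split then was 1208 higher to 640 lower, and 65.4% of calls were higher in place of 43.3%.

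Genes of each listed vessel subtype were measured. Higher in the endothelial cells were 5 of 13 arterial genes tested, 5 of 8 capillary genes, 7 of 11 venous and post-capillary genes, 6 of 11 sinusoid and fenestrated genes, 9 of 13 tip cell genes and 4 of 6 lymphatic genes. The arterial count was 10 with the library as a block and 9 with total-count scaling. The capillary count fell to 1 without P15 and 3 without P25, without 8 weeks and with the library as a block. Fewer were also called in the venous (4 without P25), sinusoid (3 without P25), tip cell (5 without P25) and lymphatic (2 without P15) lists. None of the 6 lists had a lower gene (1 arterial and 2 sinusoid genes with the library as a block), beside the 6.38% higher and 8.37% lower of all genes tested. Their median log2 fold changes ran from 2.23 (capillary) to 4.99 (lymphatic). Among capillary genes, Gpihbp1, which holds lipoprotein lipase on the vessel wall, and Car4 did not pass the count filter. Gpihbp1 had 159.5, 38.2 and 0 against 0.104, 0 and 0 CPM, and Car4 had no UMI in any cell sum.

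Dll4, the Notch ligand of arterial and tip cells, had 71.1, 131 and 51.2 against 0.142, 0.0750 and 0.0221 CPM (log2 fold change 9.47 ± 0.59, edgeR adjusted p = 4.86e-05). Sox17, an arterial transcription factor, stood at 139, 92.8 and 76.7 against 0.115, 0 and 0 CPM (log2 fold change 10.73 ± 1.03, edgeR adjusted p = 0.001). Gja4 (connexin 37), an arterial gap junction protein, had 160.1, 16.4 and 51.2 against 1.33, 0.0625 and 0.0886 CPM (log2 fold change 7.13 ± 1.52, edgeR adjusted p = 0.0329, and 0.0681 without P25 and 0.145 without 8 weeks). Dll4 and Sox17 were measured at each age, whereas Gja4 had 259 UMIs at P15 and only 3 and 4 at the later ages.

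On the venous side, Selp (P-selectin), which captures rolling leukocytes, stood at 308, 5.46 and 256 against 0.487, 0.0250 and 0.0443 CPM (log2 fold change 9.52 ± 1.67, edgeR adjusted p = 0.0188, and 0.122 without 8 weeks). Sele (E-selectin), its counterpart on activated venules, had 164, 164 and 256 against 0.252, 0.0437 and 0 CPM (log2 fold change 10.23 ± 0.91, edgeR adjusted p = 0.000754). Ephb4, the receptor tyrosine kinase of veins, had 119, 98.2 and 102 against 21.5, 20.2 and 20.03 CPM (log2 fold change 2.05 ± 0.21, edgeR adjusted p = 0.000637). The single Selp UMI at P25 sets that age apart for Selp but not for Sele, of which P25 held 30 UMIs in 4 of 8 cells. At 8 weeks 80% of the 20 Selp UMIs came from 1 of 6 cells. Plvap (chr8:71497765-71511752, GRCm38), the protein of fenestral diaphragms, was high throughout, at 906, 1195 and 1419.5 against 1.74, 1.77 and 2.24 CPM (log2 fold change 8.89 ± 0.31, edgeR adjusted p = 5.28e-06). Stab1, a scavenger receptor of sinusoids, had 150.2, 191 and 166 against 19.7, 12.0 and 7.55 CPM (log2 fold change 3.33 ± 0.37, edgeR adjusted p = 0.000962). Stab2, which marks liver sinusoids with Stab1, had 2.47, 0 and 12.8 against 0.328, 0.644 and 0.0886 CPM and was not called (log2 fold change 2.59 ± 1.15, edgeR adjusted p = 0.171, and 0.0111 with the library as a block).

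Among tip cell genes, Kcne3, a potassium channel subunit, had 104, 104 and 12.8 against 0.323, 0.756 and 0.0886 CPM (log2 fold change 7.31 ± 0.86, edgeR adjusted p = 0.00217). Apln (apelin), a peptide of sprouting vessels, stood at 63.7, 60.0 and 0 against 0.848, 0.125 and 0.553 CPM (log2 fold change 6.34 ± 0.88, edgeR adjusted p = 0.00422). Angpt2, which destabilizes vessels through TIE2, had 42.0, 115 and 12.8 against 4.62, 2.82 and 3.85 CPM (log2 fold change 3.61 ± 0.53, edgeR adjusted p = 0.00322). All 3 were lowest at 8 weeks, where each had at most 1 UMI. Esm1 (endocan), a secreted proteoglycan, had 123, 1451 and 0 against 0.984, 0.312 and 0.199 CPM (log2 fold change 9.65 ± 1.95, edgeR adjusted p = 0.0292, and not tested without P15, 0.0569 without P25, 0.0715 without 8 weeks and 0.219 with the library as a block). Its 266 UMIs at P25 came from the deepest cell, which by itself held 441 UMIs of the 4 genes of the rule.

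Clustering of the 162 endothelial cells gave 9 groups at resolution 1 (6 at 0.5 and 12 at 1.5). They are described here without a test because the groups were made from the expression of these same cells. Only cluster 9 is given a name, from a marker list; the others go by their number and leading genes. Cluster 4 (18 cells, 16 from P15 and 2 from 8 weeks) was led by Eln, Mgp and Gja4, with Sema3g among its 10 leading genes. It had Gja4 at 1138 CPM (13 of 18 cells) and Sox17 at 534 CPM (16 of 18 cells), with Selp in 1 of 18 cells. In cluster 7 (13 cells), led by Selp, Ackr1 and Sele, Selp stood at 1981 CPM (12 of 13 cells), Sele at 736 CPM (10 of 13 cells) and Gja4 at 0 in all 13 cells. The tip cell gene Apln was also among its 10 leading genes (5 of 13 cells, 72.1% of UMIs from 1 cell). Cluster 5 (18 cells, all P15) was led by Ramp3, Kcne3 and Gpihbp1, with Gpihbp1 at 509 CPM (17 of 18 cells) and the capillary gene Rgcc at 1185 CPM (17 of 18 cells). Leading genes were picked by fold between clusters, so the separation of arterial and venous ones between clusters 4 and 7 is no separate result. The 10 leading genes of cluster 5 held the capillary genes Gpihbp1 and Rgcc, the sinusoid and fenestrated gene Plpp3 and the tip cell gene Kcne3. Cluster 2 (26 cells) was led by Esm1, Col13a1, Prss23, Prnd and Cxcr4. Esm1 stood at 1376 CPM (15 of 26 cells), 68.9% of it from 1 cell, and Dll4 at 232 CPM (20 of 26 cells). Its 10 leading genes held the tip cell genes Esm1 and Cxcr4 and the capillary genes Sparcl1 and Cd300lg. Cluster 1 (32 cells), the only group with cells of all 3 ages besides cluster 6, had Crispld1, F8, Tagln and the capillary gene Fabp4 among its 10 leading genes. Nr2f2 (COUP-TFII), a venous transcription factor, was found in 30 of 32 cells and Stab1 in 25 of 32 cells.

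Cluster 3 (18 cells, all P15) was led by Rsad2 and held the interferon-stimulated genes Ifi44, Isg15 and Ifit2 among its 10 leading genes, but the 25 Rsad2 and 11 Ifit2 UMIs each came from 1 cell. Ifi203 and Mndal, interferon-inducible genes also among the 10, were more widely found, in 16 of 18 and 11 of 18 cells. Isg15 had a UMI in 6 of 18 cells, with 67.7% of its UMIs from a single cell, and Ifi44 in 5 of 18, with 54.2% from a single cell. Aplnr, the apelin receptor, was found in 18 of 18 cells. In cluster 8 (12 cells), the proliferation genes Mki67 and Top2a were found in 10 of 12 cells and 9 of 12 cells, although haemoglobin genes from 1 cell led it. Cluster 6 (16 cells) was led by Postn, Dcn and collagens. Its cells had a median of 25106.5 UMIs and a median of 2.34% of UMIs from the mesenchymal list, beside 0.122% to 0.196% in the other 8 groups. Of the 16, 12 were among the 6% of cells with the highest Scrublet doublet scores. In the plot of depth against mesenchymal share, 15 of these cells lie above 0.675%, the highest share outside the cluster, and 1 lies at 0.578%. Without the 16 cells, 959 genes were higher and 1831 lower; whether they hold 2 cells was not tested.

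**Figure D2:**
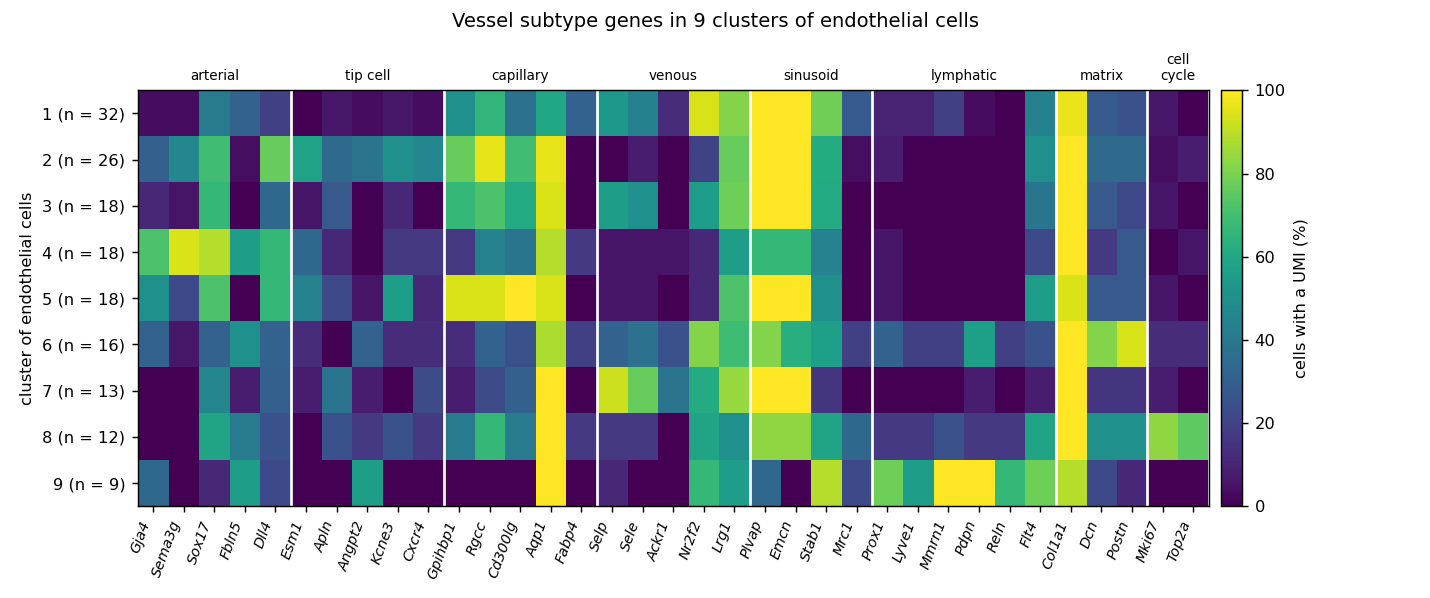
Percent of cells with at least 1 UMI of vessel subtype genes (columns, grouped by list) in the 9 clusters of endothelial cells (rows, n cells each), with mesenchymal matrix genes and cell cycle genes at the right. Gja4 and Sema3g are highest in cluster 4, Selp in cluster 7, Gpihbp1 in cluster 5, Mmrn1 and Pdpn in cluster 9 and Postn in cluster 6.

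**Figure D3:**
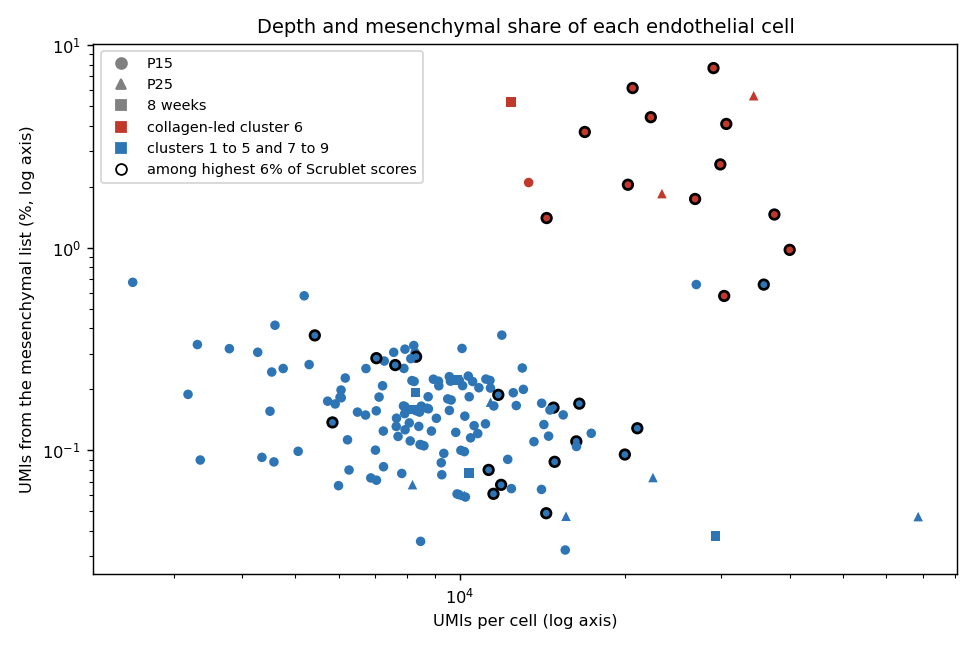
UMIs per cell (x, log axis) against the percent of a cell's UMIs from 13 mesenchymal genes (y, log axis) for the 162 endothelial cells, by library (symbol), with cluster 6 in red, all other clusters in blue, and a black rim on cells among the highest 6% of Scrublet scores. Cells of cluster 6 reach 7.70%, and all but 1 lie above the cells of the other clusters in share, but not in depth.

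Cluster 9 (9 cells, all P15) was lymphatic endothelial-like by the marker list, but cells with its markers also lay outside it. A P25 cell of cluster 6 held 6 Prox1 and 74 Mmrn1 UMIs. A P15 cell of the same cluster held 10 and 25, and a P15 cell of cluster 8 held 17 and 29. Within cluster 9 the markers were found as follows. Mmrn1 (multimerin-1) and Pdpn (podoplanin) were found in 9 of 9 cells, and Prox1, the transcription factor that sets lymphatic identity, in 7 of 9 cells. Flt4 (VEGFR3) was found in 7 of 9 cells, Reln in 6 of 9 cells and the hyaluronan receptor Lyve1 in 5 of 9 cells. Emcn, Gpihbp1, Rgcc and Aplnr had no UMI there, while the junction protein Cldn5 reached 1950.1 CPM (8 of 9 cells). Of these 9 cells 6 were among the highest Scrublet scores. Summed over all endothelial cells, Mmrn1 had 128, 420.1 and 25.6 against 0.0492, 0.0250 and 0 CPM (log2 fold change 12.16 ± 1.11, edgeR adjusted p = 0.000986). Of its P25 UMIs 96.1% came from 1 cell, the P25 cell of cluster 6 given above. Flt4, read by VEGFC and shared with sprouting blood vessels, had 92.1, 306 and 38.4 against 2.92, 2.56 and 1.46 CPM (log2 fold change 5.64 ± 0.69, edgeR adjusted p = 0.00241). Pdpn, which cementoblasts and osteocytes also express, had 39.0, 54.6 and 12.8 against 19.0, 30.7 and 38.1 CPM and was not called (log2 fold change 0.08 ± 0.40, edgeR adjusted p = 0.947).

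Pairs of markers were also counted in single cells. Selp was found in 49 of 162 cells and Gja4 in 41, but both in only 2. Esm1 was found in 33 cells, of which 19 held Gja4 and none Selp. By contrast, 34 of the 45 cells with Sele also held Selp, and 21 of the 36 with Sema3g held Gja4. Of 21 cells with Prox1, 13 held Mmrn1 and 8 held Gja4, a gene found in 3 of the 9 cells of cluster 9. Kdr was found in 21 of them and Flt1 in 9, but both are genes of the rule, each found in 145 of the 162 cells. Gpihbp1, a capillary gene, was found in 17 of the 49 cells with Selp. These are counts of cells with a UMI at unequal depth and carry no test.

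Structural genes of the vessel wall were counted against the 6.38% higher and 8.37% lower of all genes tested. Of 13 junction genes listed (12 tested), 7 were higher and none lower (4 higher without P15). F11r (JAM-A), a tight junction adhesion molecule, had 259.7, 344 and 230.2 against 13.3, 16.0 and 4.65 CPM (log2 fold change 4.25 ± 0.51, edgeR adjusted p = 0.0018). Basement membrane genes were higher in 9 and lower in 1 of 13 (2 higher without P15, 1 without P25, none lower without P15, without P25, without 8 weeks and with total-count scaling). Among them Col15a1, which anchors the vessel to its stroma, stood at 545, 660.2 and 307 against 14.0, 41.6 and 34.1 CPM (log2 fold change 3.73 ± 0.50, edgeR adjusted p = 0.00272). Col4a1, the core collagen of basement membranes, had 3972, 3738 and 537 against 115, 124 and 68.3 CPM (log2 fold change 4.41 ± 0.77, edgeR adjusted p = 0.0127, and 0.118 without P15 and 0.103 without P25). Sparc was the lower gene, at 5611, 6957 and 2443 against 9783, 17508 and 12769.9 CPM (log2 fold change -1.77 ± 0.42, edgeR adjusted p = 0.0316, and 0.0964 without P15, 0.0731 without P25, 0.0772 without 8 weeks and 0.0582 with total-count scaling). Most basement membrane calls were lost when either P15 or P25 was left out.

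Transcription factors of the endothelial programme were higher in 14 of 23 listed (22 tested) and lower in none, beside 6.38% higher and 8.37% lower of all genes tested, the background also of the 2 lists that follow. Erg, an ETS factor that maintains endothelial identity, had 109, 164 and 76.7 against 1.66, 0.712 and 0.819 CPM (log2 fold change 6.45 ± 0.45, edgeR adjusted p = 9.15e-05). Sox18, which acts in arterial and lymphatic specification, stood at 278, 371 and 537 against 1.59, 0.794 and 0.598 CPM (log2 fold change 8.21 ± 0.50, edgeR adjusted p = 5.35e-05). Epas1 (HIF2A), an oxygen-regulated factor, had 414, 311 and 435 against 12.9, 5.55 and 3.59 CPM (log2 fold change 5.36 ± 0.52, edgeR adjusted p = 0.000734). In each of the 3 every endothelial sum lay above every sum of the other cells. Klf2, a flow-induced factor, was abundant in both, at 757, 1200.4 and 2033 against 397, 880.0 and 1073 CPM, and was not called (log2 fold change 0.37 ± 0.45, edgeR adjusted p = 0.652). Clotting and vascular tone genes were higher in 8 and lower in 1 of 12. Nos3, the endothelial nitric oxide synthase, had 81.6, 65.5 and 153 against 0.946, 0.837 and 1.24 CPM (log2 fold change 6.16 ± 0.37, edgeR adjusted p = 4.1e-05). Thbd (thrombomodulin), the anticoagulant receptor for thrombin, stood at 126, 409 and 281 against 14.7, 20.8 and 16.4 CPM (log2 fold change 3.55 ± 0.44, edgeR adjusted p = 0.00186). For neither gene did the sums overlap between the groups. How large a share of all genes tested was separated in this way is not given, here and for the 3 transcription factors above. Of 14 genes of leukocyte adhesion and antigen presentation, 6 were higher and 1 lower (none lower without P25, 4 with the library as a block). The lower gene was Cd74, the class II invariant chain, at 13.0, 5.46 and 0 against 276, 81.2 and 76.7 CPM (log2 fold change -4.10 ± 0.77, edgeR adjusted p = 0.0139, and 0.0649 without P25).

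Receptors for ligands of the surrounding mesenchyme were counted by family and are shown in the plot of receptors. No difference between families was tested, and several families held genes called in both directions. The counts stand beside 6.38% higher and 8.37% lower of all genes tested. Besides Kdr and Flt1, which chose the cells, the VEGF co-receptor Nrp1 (neuropilin-1) was higher, at 649, 818 and 549.9 against 46.6, 23.8 and 60.5 CPM (log2 fold change 3.62 ± 0.36, edgeR adjusted p = 0.000516). Nrp2 was not called, with 294, 507 and 345 against 233, 220.0 and 353 CPM (log2 fold change 0.15 ± 0.28, edgeR adjusted p = 0.793). Both angiopoietin receptors were higher. Tie1 is given above, and Tek, the receptor of ANGPT1, had 166, 136 and 371 against 0.558, 0.794 and 5.45 CPM (log2 fold change 6.24 ± 1.12, edgeR adjusted p = 0.0164, and 0.0813 without P15 and 0.0959 without P25). Angpt1, the ligand of TIE2 secreted by mural and mesenchymal cells, was lower, at 4.95, 0 and 0 against 45.2, 30.4 and 64.8 CPM (log2 fold change -3.87 ± 0.56, edgeR adjusted p = 0.00318, and 0.0685 without P15). Angpt4, a further ligand of TIE2, was lower too, at 2.47, 0 and 0 against 45.5, 86.6 and 156 CPM (log2 fold change -5.87 ± 0.81, edgeR adjusted p = 0.0032). Its endothelial sums at P25 and 8 weeks held no UMI, so that no fold can be given without P15. Vegfa, the main ligand of Kdr, had 21.0, 32.7 and 63.9 against 46.7, 57.6 and 75.8 CPM (log2 fold change -1.38 ± 0.39, edgeR adjusted p = 0.0476, and 0.272 without P15, 0.181 without P25, 0.0715 without 8 weeks and 0.128 with total-count scaling).

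**Figure D4:**
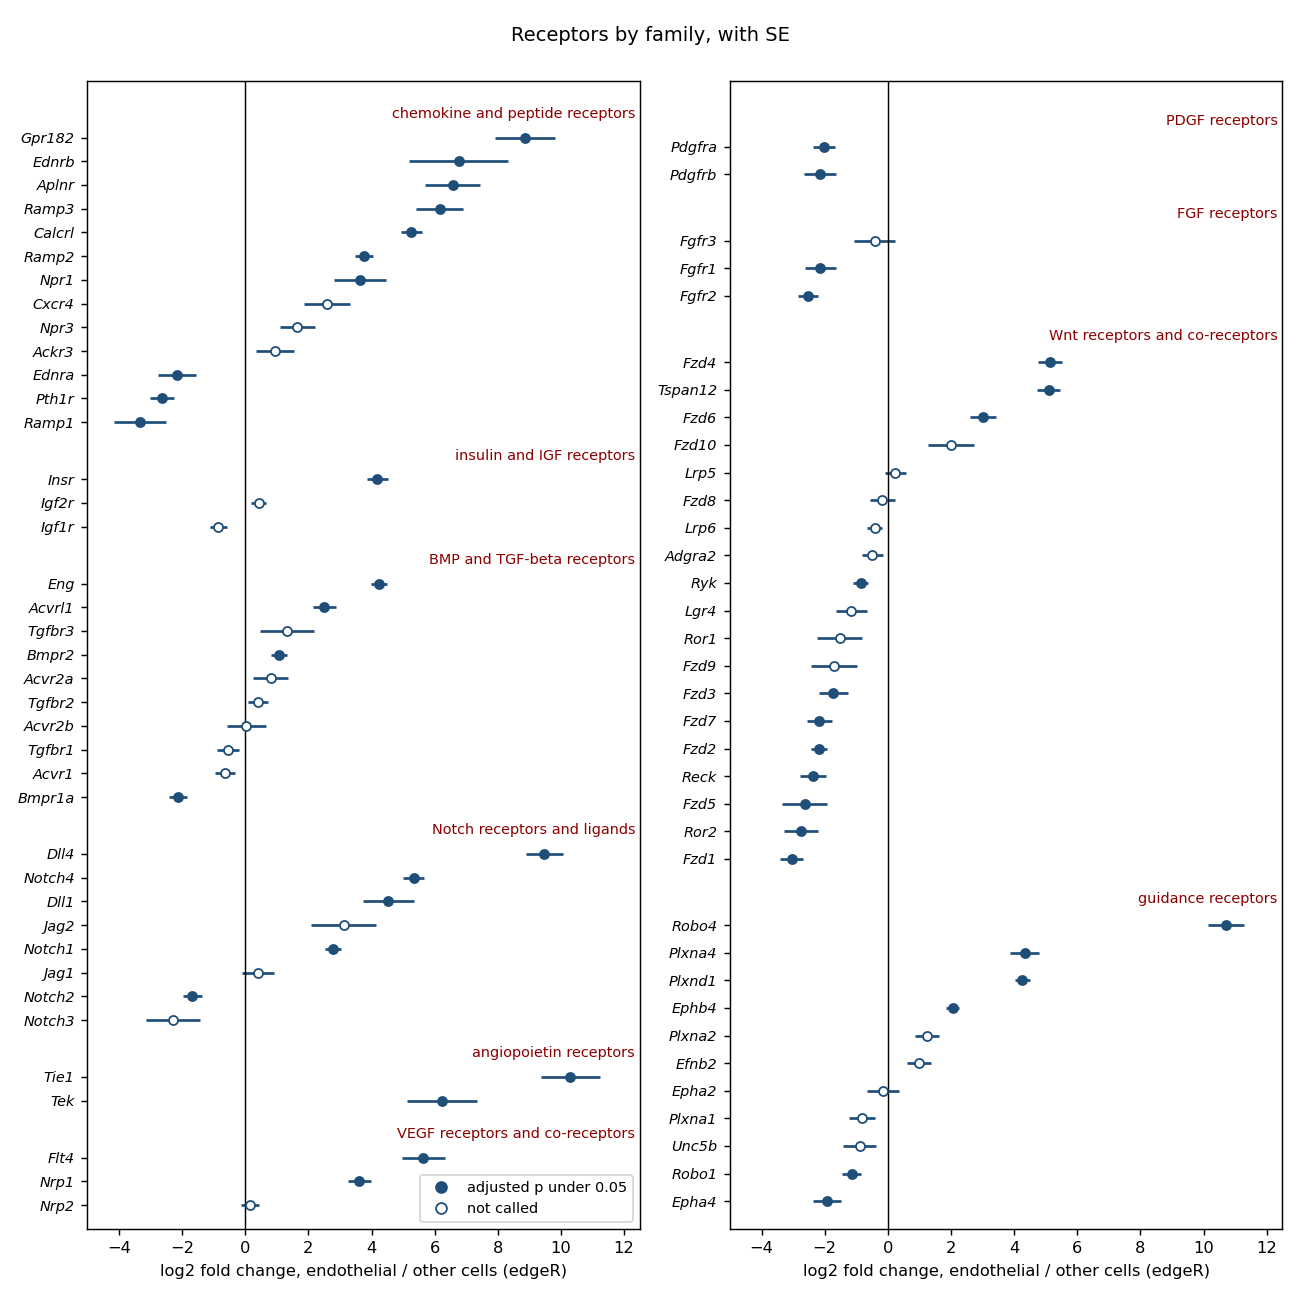
Log2 fold change of endothelial over other cells (edgeR, 3 sums a side, with SE) for the receptors tested, by family; filled points have an adjusted p under 0.05 and open points do not. Robo4 (10.70) and Tie1 (10.29) lie farthest to the right and Ramp1 (-3.34) farthest to the left; both PDGF receptors and Fgfr1 and Fgfr2 lie left of 0.

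Of 19 Wnt receptors and co-receptors, 3 were higher and 8 lower (2 lower without P15, 4 without P25 and without 8 weeks, 5 with total-count scaling), with a median log2 fold change of -1.16. The higher ones were Fzd4, its co-receptor Tspan12 and Fzd6, the last at 70.5, 32.7 and 25.6 against 6.32, 5.32 and 3.41 CPM (log2 fold change 3.02 ± 0.42, edgeR adjusted p = 0.00253, and 0.12 without P15). Fzd4 (chr7:89404355-89413134, GRCm38), the norrin and Wnt receptor of retinal and brain vessels, had 106, 158 and 205 against 3.63, 1.92 and 4.21 CPM (log2 fold change 5.15 ± 0.38, edgeR adjusted p = 0.000116). Tspan12, the tetraspanin that joins Fzd4, stood at 119, 153 and 63.9 against 3.22, 2.94 and 1.88 CPM (log2 fold change 5.09 ± 0.37, edgeR adjusted p = 0.000105). Fzd1 was lower, at 28.4, 16.4 and 12.8 against 114, 139 and 213 CPM (log2 fold change -3.05 ± 0.37, edgeR adjusted p = 0.00131). So was Fzd2, at 27.2, 32.7 and 25.6 against 94.3, 87.6 and 123 CPM (log2 fold change -2.18 ± 0.26, edgeR adjusted p = 0.00114). Fzd4 and Tspan12 thus lay above the other cells in all 3 libraries, and Fzd1 and Fzd2 below them. For such separation no share over all genes tested is given. The co-receptors Lrp5 and Lrp6 were not called (log2 fold change 0.24 ± 0.34 and -0.42 ± 0.24, SE; edgeR adjusted p = 0.706 and 0.279). Wif1, a secreted Wnt inhibitor abundant in the sorted cells, was lower at 454, 202 and 89.5 against 2381, 3409 and 5162 CPM (log2 fold change -4.11 ± 0.59, edgeR adjusted p = 0.00487, and 0.0659 without P25 and 0.0726 with the library as a block). Wnt5a, a non-canonical Wnt ligand, had 49.5, 147 and 12.8 against 176, 251 and 269.9 CPM (log2 fold change -2.03 ± 0.56, edgeR adjusted p = 0.0493, and 0.21 without P15, 0.155 without 8 weeks and 0.0889 with total-count scaling).

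BMP and TGF-beta receptors were higher in 3 (Eng, Acvrl1 and Bmpr2) and lower in 1 (Bmpr1a) of 10 (1 higher without P15, none lower without P15). Bmpr2, the type II receptor, had 383, 273 and 294 against 108, 100.4 and 153 CPM (log2 fold change 1.07 ± 0.25, edgeR adjusted p = 0.0224, and 0.248 without P15 and 0.128 without P25). Acvrl1 (ALK1), the endothelial type I receptor, had 114, 70.9 and 76.7 against 8.78, 11.4 and 18.8 CPM (log2 fold change 2.51 ± 0.36, edgeR adjusted p = 0.00272, and 0.061 without P15). Bmpr1a (ALK3), the type I receptor of many mesenchymal cells, stood at 20.4, 32.7 and 25.6 against 77.9, 73.8 and 96.4 CPM (log2 fold change -2.13 ± 0.28, edgeR adjusted p = 0.00184, and 0.0523 without P15). The 3 sums of each of these receptors did not overlap with those of the other cells, but the share of all genes tested that did so is not given. The ligand Bmp2 had 47.6, 60.0 and 115 against 100.3, 131 and 204 CPM (log2 fold change -1.54 ± 0.38, edgeR adjusted p = 0.031, and 0.126 without P15, 0.165 without P25 and 0.0827 with total-count scaling). Notch genes were higher in 4 and lower in 1 of 8 (none lower without P15, without P25 and without 8 weeks, 2 with the library as a block). Notch1 had 174, 186 and 256 against 24.0, 25.1 and 18.7 CPM (log2 fold change 2.77 ± 0.25, edgeR adjusted p = 0.000311). Notch4, the endothelial receptor, had 58.1, 81.8 and 51.2 against 1.42, 1.24 and 1.04 CPM (log2 fold change 5.34 ± 0.33, edgeR adjusted p = 4.69e-05). Notch2 was the lower one, at 19.2, 16.4 and 12.8 against 36.3, 43.2 and 56.1 CPM (log2 fold change -1.67 ± 0.31, edgeR adjusted p = 0.00955, and 0.0718 without P15, 0.0805 without P25 and 0.0662 without 8 weeks).

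FGF and PDGF receptors, which serve mesenchymal growth, were not higher in any case. Of 3 FGF receptors 2 were lower (1 without P15 and without P25), and both PDGF receptors were lower (1 without 8 weeks and with total-count scaling, none without P15). Fgfr2 had 38.3, 21.8 and 12.8 against 163, 115 and 141 CPM (log2 fold change -2.52 ± 0.32, edgeR adjusted p = 0.00172). Pdgfra had 28.4, 65.5 and 63.9 against 141, 117 and 167 CPM (log2 fold change -2.02 ± 0.35, edgeR adjusted p = 0.00662, and 0.0701 without P15). Insr (chr8:3122061-3279617, GRCm38), the insulin receptor, was higher, at 317, 180.1 and 460.4 against 15.3, 11.2 and 13.6 CPM (log2 fold change 4.19 ± 0.34, edgeR adjusted p = 0.000195). The related Igf1r had 71.1, 92.8 and 63.9 against 91.8, 94.7 and 138 CPM and was not called (log2 fold change -0.85 ± 0.26, edgeR adjusted p = 0.0604, and 0.0361 with the library as a block). The ligand Igf1 was lower, at 157, 147 and 166 against 529, 449 and 546 CPM (log2 fold change -2.05 ± 0.20, edgeR adjusted p = 0.000487). Insulin and IGF receptors, though close relatives, thus stood on different sides of the threshold; the difference between the 2 genes was not tested.

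Chemokine and peptide receptors were higher in 7 and lower in 3 of 13 (4 higher without P25, 1 lower without P15 and without P25). Calcrl, the adrenomedullin and CGRP receptor, had 291, 300.1 and 460.4 against 8.86, 4.67 and 7.44 CPM (log2 fold change 5.26 ± 0.32, edgeR adjusted p = 4.65e-05). Its partner Ramp3 stood at 92.1, 131 and 12.8 against 1.78, 0.475 and 0.642 CPM (log2 fold change 6.16 ± 0.74, edgeR adjusted p = 0.00225). Gpr182, an atypical chemokine receptor, had 20.4, 16.4 and 76.7 against 0.0930, 0.0187 and 0.0221 CPM (log2 fold change 8.86 ± 0.94, edgeR adjusted p = 0.000748, and not tested without P15). All 3 were above the other cells in each library, Ramp3 and Gpr182 from 1 to 6 UMIs at 8 weeks. The share of all genes tested that were so is not given. Pth1r, the receptor of PTHrP, was lower, at 11.7, 5.46 and 0 against 55.1, 41.8 and 47.5 CPM (log2 fold change -2.63 ± 0.39, edgeR adjusted p = 0.00329). Thinned to 3000 UMIs, 2.72% (0.746 to 6.82) of the endothelial cells at P15 held a Pth1r UMI (8.78% unthinned), beside 1.78% of immune cells (10.5% unthinned) and 13.5% of the other cells (43.2% unthinned). The interval of the endothelial share thus held the share of immune cells, and the endothelial share is not read as expression. Guidance receptors were higher in 4 and lower in 2 of 11 (1 lower without P15, none without P25, without 8 weeks and with total-count scaling). Among them was Plxnd1, the semaphorin 3E receptor, at 454, 584 and 396 against 20.7, 19.3 and 18.9 CPM (log2 fold change 4.26 ± 0.24, edgeR adjusted p = 3.62e-05).

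Of 13 cytokine receptors, 3 were higher (1 higher without P15, 7 with the library as a block, 6 with total-count scaling) and none lower. Among them was the TNF receptor Tnfrsf1a, at 198, 224 and 307 against 51.7, 58.4 and 66.1 CPM (log2 fold change 1.65 ± 0.23, edgeR adjusted p = 0.00255). Matrix receptors were higher in 6 and lower in 2 of 17 (3 higher without P15, 1 without P25, none lower without P15, 1 without 8 weeks and with total-count scaling, 4 with the library as a block). Itga5, the fibronectin receptor subunit, had 127, 125 and 153 against 15.3, 16.6 and 17.2 CPM (log2 fold change 2.66 ± 0.21, edgeR adjusted p = 0.000161). Cd44, the hyaluronan receptor of mesenchymal cells, was lower, at 16.7, 49.1 and 0 against 96.3, 120.0 and 77.8 CPM (log2 fold change -2.50 ± 0.54, edgeR adjusted p = 0.0191, and 0.208 without P15).

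Among 41 ligands listed as mesenchymal (40 tested), 4 were higher and 16 lower in the endothelial cells (2 higher without P25, 3 lower without P15, 7 without P25, 9 without 8 weeks). Of all genes tested 6.38% were higher, which the 4 of 40 is near, and 8.37% lower. Among 22 listed as endothelial (21 tested), 7 were higher and 3 lower (3 higher without P15 and without P25, none lower without P15, 1 without P25 and with total-count scaling, 6 with the library as a block). Kitl, the ligand of the receptor Kit, had 129, 76.4 and 422 against 34.6, 16.0 and 22.8 CPM (log2 fold change 2.55 ± 0.59, edgeR adjusted p = 0.0295, and 0.0888 without P15, 0.0533 without P25 and 0.0701 without 8 weeks). Pdgfb, which recruits pericytes, stood at 116, 229 and 0 against 2.33, 4.13 and 0.376 CPM (log2 fold change 5.39 ± 1.15, edgeR adjusted p = 0.0294, and 0.206 without P15 and 0.105 without P25). Cxcl12, a chemokine of mesenchymal and arterial cells, did not keep a direction, at 672, 235 and 25.6 against 118, 111 and 197 CPM (log2 fold change 0.94 ± 0.78, edgeR adjusted p = 0.486). It was above the other cells at P15 and P25 and below at 8 weeks, and 97.7% of its P25 UMIs came from 1 cell. Within the endothelial cells it was found mainly in cluster 4, at 2587 CPM (13 of 18 cells), and cluster 5, at 1805 CPM (13 of 18 cells). None of the 9 cells of cluster 9 held it. The plot of ligand levels sets the endothelial sums beside 435 mural and 18536 mesenchymal cells.

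**Figure D5:**
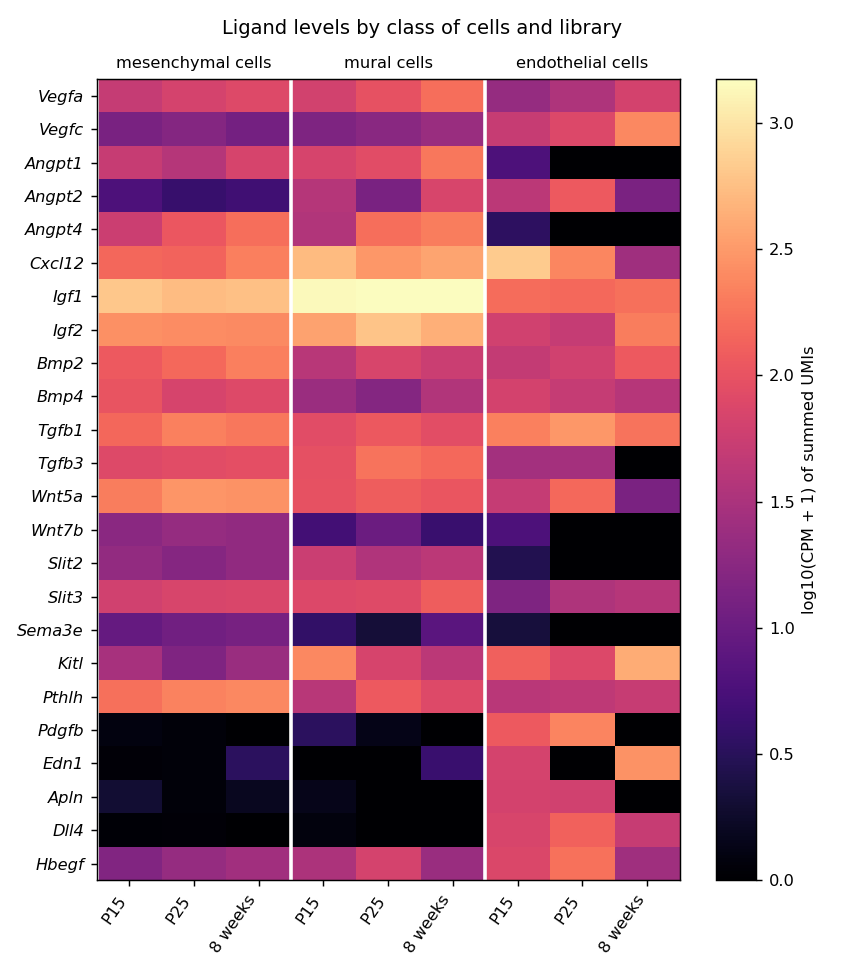
Levels of 24 ligands, as log10(CPM + 1) of UMIs summed over mesenchymal, mural and endothelial cells (blocks of columns) of each library (P15, P25, 8 weeks within a block). Dll4 is near 0 outside the endothelial block, Angpt1 and Angpt4 are lowest within it, and Igf1 is highest in the mural block.

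Stress and proliferation genes were also compared, beside 6.38% higher and 8.37% lower of all genes tested. Of 14 genes that tissue dissociation induces, none was higher and 3 were lower (1 lower without P15 and with total-count scaling, none without P25, 11 with the library as a block). They summed to 6176, 10127 and 18300.2 CPM against 13826, 15090 and 23374 CPM in the other cells, and Fos was the most abundant in each sum. None of 17 cell cycle genes was called (1 was lower with the library as a block), and they summed to 774, 502 and 166 CPM against 534, 754 and 278 CPM.

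Between ages, levels in the endothelial cells can only be set side by side. Of 8598 genes with at least 20 UMIs over the P15 and P25 endothelial sums, 612 (7.12%) were at least 2-fold higher at P25 and 1165 (13.5%) at least 2-fold lower, with no test. With each cell thinned to 3000 UMIs, which leaves 147 cells in the P15 sum and 8 in the P25 sum, 425 were higher and 402 lower of 4180 genes that reached 20 UMIs. Without the cells of the highest doublet scores 543 were higher and 881 lower of 7339, and with at least 8 UMIs of the rule's genes 639 and 1154 of 8478. Among genes with at least 50 UMIs over both sums, the 8 with the largest ratio were Ccl2, Prnd, Rnasek, Atp6v0c, Nme2, Rgs5, Igfbp2 and Dio2. For Ccl2, a monocyte chemokine (0.618 CPM at P15 and 284 at P25), Prnd and Rgs5 all P25 UMIs came from a single cell, and for Igfbp2 and Dio2 94.7% and 99.3% did. Ccl2 had a log2 fold change over the other cells of 0.47 ± 1.58 (SE, edgeR adjusted p = 0.913) with all libraries and -6.92 without P25 (adjusted p = 0.00224). Rnasek, at 1.85 and 300.1 CPM at P15 and P25, stood at like levels in the other cells (1.95 and 255 CPM), as did Atp6v0c. Nme2 had 15.5 and 644 CPM in the endothelial cells beside 21.0 and 1252 CPM in the other cells. The P25 counts came from another Cell Ranger version with a larger gene reference, which cannot be told apart from age. At 8 weeks, counted with the smaller reference of P15, the other cells had 1.37 CPM of Rnasek, 3.54 of Atp6v0c and 136 of Nme2. For Rnasek and Atp6v0c that is near their P15 level (1.95 and 4.51 CPM) and far from P25 (255 and 343 CPM). What set P25 apart was not tested. Among the 8 with the lowest ratio, Srp54b was lower at P25 in the other cells too (101 and 3.41 CPM, and 95.2 CPM at 8 weeks). The P15 UMIs of Hbb-bs, Hba-a1 and Hbb-bt came to 96.1%, 97.5% and 97.9% from 1 cell. Selp, at 308 CPM at P15 (95% Poisson interval 281 to 336) and 5.46 at P25 (0.138 to 30.4), was in 45 of 148 and 1 of 8 cells, and Ogn, Lsp1 and Ibsp, genes of matrix-forming and blood cells, completed the 8. A single cell held 60.1% of the Ibsp, 30.6% of the Ogn and 15.7% of the Lsp1 UMIs at P15.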

How the data were processed

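The authors sorted mCherry+ cells by FACS, made 10x Chromium 3' v3.1 libraries, sequenced them on a NovaSeq 6000 and deposited UMI counts per gene and cell, not normalized. Per the labels, reads were counted with Cell Ranger 6.1.2 on mm10; the file header of P25 names version 6.0.1, and its reference held 32293 genes beside 22056 at P15 and 8 weeks, of which 21446 identifiers were shared and used. A further library, of P6, was not analysed here. Filtered cells numbered 11412, 8325 and 4591 at P15, P25 and 8 weeks. Intervals and floors of 3 UMIs cover counting error only.

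UMI counts were summed per library over endothelial and other cells and tested with edgeR 4.0.16 (robust quasi-likelihood, TMM, filterByExpr, Benjamini-Hochberg adjustment), without the 5 genes of the rule. The sums of a library came from the same animals, and their deviations from the group means correlated across genes (r = 0.208, 0.141 and 0.115), so the library was also fitted as a block. P-values measure the spread between 3 libraries of different ages. Endothelial cells were clustered with scanpy 1.11.5 and leidenalg 0.10.2 (1500 variable genes, 15 components, 10 neighbours) with leading genes ranked by fold after 50 CPM were added. Doublets were scored with Scrublet, whose automatic threshold marked 405, 0 and 6 cells; none was removed, and the 6% with the highest scores were left out in an alternative. The members and 35 gene lists (357 of 358 genes matched) were chosen with earlier results of these data known. Named genes are list members needed for the role described, the 15 most higher and 5 most lower genes outside the lists with at least 50 CPM, and the 8 most higher and lower between ages. Alternatives were other scalings, no filter, DESeq2 1.42.0, the block, each library left out, other comparison cells, gates and cell filters. Gene positions are from GENCODE on GRCm38.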

Additional observations from a re-analysis of the deposited data

Results flagged for a closer look

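The levels of most genes named in the text were set beside those of the other cells at each age, and Cxcl12, given above, and 6 more stood above them in the endothelial sum of at least 1 age and below them at another, with the 95% counting intervals apart. The comparison did not cover all genes, so others may show the same. With a single library per age, the difference between ages was not tested for any of the 7 genes. Rgcc, a capillary gene, had 435 CPM at P15, 540.2 CPM at P25 and no UMI at 8 weeks, where the other cells had 95.3 CPM. Kit, the receptor of KITL, had 51.9 CPM at P15 and 54.6 CPM at P25 and again no UMI at 8 weeks, where 3 UMIs would be 38.4 CPM. Cxcl12 fell on both sides in the same way, with 672, 235 and 25.6 CPM. Dcn (decorin), a proteoglycan of connective tissue, went the other way: the endothelial cells held 145 CPM at P15 and 835 CPM at P25, below the other cells, and 4143 CPM at 8 weeks, above their 3021 CPM. At that age 98.8% of the 324 Dcn UMIs came from a single cell. Ccl2 had 284 CPM at P25 but 0.618 CPM at P15 and 0 at 8 weeks, and the pericyte gene Rgs5 had 360.1 CPM at P25 and 11.7 CPM at P15. For both, every UMI at P25 came from 1 cell. Hbb-bt, a haemoglobin chain, had 357 CPM at P15, of which 97.9% came from 1 cell, and 5.46 CPM at P25.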

How the results depend on the processing

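Against mesenchymal comparison cells 1 of the lower genes was called higher. In the other alternative fits none of the 858 higher and 1125 lower genes was called in the opposite direction. Ccl2, not called among these, was called lower in some fits and is given below. The counts were less steady. Without single libraries 381 to 704 genes were higher and 258 to 393 lower, of which 368 to 622 and 236 to 346 were among the genes reported. Lower genes numbered 2229 with the library as a replicate block, 640 with total-count scaling and 1831 without the collagen-led cluster, both last chosen after seeing the data. The block kept 834 of the 858 higher and 1107 of the 1125 lower calls. Of the 126 tested genes named, 100 were called, and 61 of these stayed called whichever library was left out. The block ended 3 calls (Esm1, Cldn5 and Wif1) and added 9 (Stab2, Reln, Igf1r, Cd79a, Cd79b, Cxcr4, Fos, Myh11 and Tyrobp), and it changed no other call among them.

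Other settings moved few named genes. Calls of Gja4, Esm1, Krt14, Vegfa and Wnt5a ended without the low-count filter, those of Vegfa and Wnt5a also with DESeq2 size factors and that of Vegfa with DESeq2, which called 1184 genes higher and 1173 lower. Leaving out the highest Scrublet scores ended those of Lyve1, Vegfa, Wnt5a and Pdgfra. Against mesenchymal comparison cells Cd74 stood at a log2 fold change of 0.48 and Krt14 at 0.29, with neither called, in cells defined without Ptprc, Epcam or Cdh1. There the calls of Csf1r, Ly6d and Lgals7 also ended and Cxcr4 was called higher. Ccl2 ran from -6.92 without P25 to 1.47 without P15, and was -6.85 with at least 8 UMIs of the rule's genes and -6.58 without the collagen-led cluster. Thinned to 3000 UMIs per cell, the share of endothelial cells was 1.07% at P15 and 0.0370% at P25, and 425 genes were at least 2-fold higher and 402 lower at P25 of 4180 that reached 20 UMIs. The cause of the other changes was not tested. A fit of libraries with at least 20 endothelial cells could not be made, as P15 alone remained. At P25 and 8 weeks 8 and 6 cells limit what can be detected, and genes under 16.4 and 38.4 CPM there rest on fewer than 3 UMIs.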
